A study of Mus musculus with 12 samples.

Results

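The 10 cathepsin genes described here are Ctsa, Ctsb, Ctsc, Ctsd, Ctsh, Ctsk, Ctsl, Ctso, Ctss and Ctsz. They were taken by name from the 22195 genes of the files, as lysosomal proteases, with earlier results of these data known. All 10 passed the filter on low counts, against 3 of the 13 other cathepsin genes of the files. RNA of whole subcutaneous tumours was sequenced, in 12 libraries that form 4 groups of 3. The tumours grew in C57BL/6J mice with an intact immune system from YUMM 2.1, a cell line of mouse melanoma, and the labels call the tissue skin tumor. The combination group received anti-B7-H3 plus anti-PD1, and the anti-B7-H3 group received the antibody against the checkpoint protein B7-H3 alone. The anti-PD1 group received the antibody against PD1, a checkpoint receptor of T cells, alone, and the isotype control group received an IgG without a tumour target. Treatment began at a tumour size of 20 to 50 mm3 in every group, and the series asked which immune cells the tumours held. All groups share the cell line and the mouse strain, no age or sex is given, and the sources used here give no dose or time of collection. The labels do not say that each library comes from its own mouse or that none was pooled, so p-values measure the spread between these libraries, which may be technical.

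Cathepsins are made as inactive precursors, tagged with mannose 6-phosphate in the Golgi and carried to lysosomes, where the acid made by a proton pump lets them mature. There they degrade proteins that a cell has taken up or turned over, and in macrophages and other antigen-presenting cells they also cut the invariant chain and antigens for class II presentation. Ctsb, Ctsl, Ctss and Ctsk encode cysteine proteases that cut within proteins, Ctsc, Ctsh and Ctsz encode cysteine proteases that trim protein ends, and Ctso encodes a little-studied cysteine protease. Ctsd encodes an aspartic protease and Ctsa a serine carboxypeptidase that also shields other lysosomal enzymes. Outside lysosomes, cathepsins of tumour macrophages, fibroblasts and tumour cells are known to degrade matrix.

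The places of the genes are given in GRCm38. Ctss (chromosome 3, 95526786 to 95556403, plus strand) and Ctsk (chromosome 3, 95499256 to 95509362, plus strand) are neighbours, 17423 bases apart with no other gene of the files between them. Ctsd (chromosome 7, 142375911 to 142388038, minus strand) and Ctsc (chromosome 7, 88278085 to 88310888, plus strand) share a chromosome but lie far apart. Ctsa (2, 164832873 to 164841032) and Ctsz (2, 174427493 to 174439039) are on chromosome 2. The others are Ctsb (14, 63122462 to 63145923), Ctsh (9, 90054152 to 90076089), Ctsl (13, 64359337 to 64370890) and Ctso (3, 81932601 to 81956725).

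Promoter windows of RefSeq (GRCm38.p6) were matched by symbol for 8 of the 10 genes, with a second start for Ctsa, which makes 9 windows; Ctsb and Ctsh had no entry. The 5 windows below hold a match to a motif that background knowledge links to lysosomal or myeloid genes. In anti-B7-H3 against isotype control, Ctss and Ctsk differed most, and Ctsd and Ctsa differed least apart from Ctso, so these are shown. Other comparisons gave other orders. Ctsc is shown because it shares the motif of Ctss and Ctsk. Each is printed 5′ to 3′ on the gene's strand, from 250 bases before the start to 30 after it, and capitals mark the matches. The motif TCACGTGA, and the shorter CACGTG inside it, is the core bound by TFEB and its relatives, and GAGGAAG is a core of the myeloid factor PU.1. Both strands were searched, so capitals in Ctsc and elsewhere may show a motif's reverse complement.
Ctsd, chr7:142387798-142388077, minus strand: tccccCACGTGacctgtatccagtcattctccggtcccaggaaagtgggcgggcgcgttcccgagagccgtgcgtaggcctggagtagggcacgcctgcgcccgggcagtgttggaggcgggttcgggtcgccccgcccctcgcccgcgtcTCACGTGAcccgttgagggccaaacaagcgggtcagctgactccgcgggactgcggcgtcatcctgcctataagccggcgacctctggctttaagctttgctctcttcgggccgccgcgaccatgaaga
Ctsa, chr2:164833523-164833802, plus strand: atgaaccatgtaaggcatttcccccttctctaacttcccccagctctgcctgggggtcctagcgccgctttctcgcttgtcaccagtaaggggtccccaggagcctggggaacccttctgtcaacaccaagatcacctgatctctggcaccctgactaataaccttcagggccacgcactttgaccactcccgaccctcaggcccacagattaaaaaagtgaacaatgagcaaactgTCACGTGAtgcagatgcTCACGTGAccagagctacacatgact
Ctss, chr3:95526536-95526815, plus strand: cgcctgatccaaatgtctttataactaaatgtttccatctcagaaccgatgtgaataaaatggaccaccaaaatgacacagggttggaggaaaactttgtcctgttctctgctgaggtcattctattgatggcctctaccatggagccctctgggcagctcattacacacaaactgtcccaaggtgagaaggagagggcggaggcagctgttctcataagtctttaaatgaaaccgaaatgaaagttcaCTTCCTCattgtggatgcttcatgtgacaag
Ctsk, chr3:95498960-95499239, plus strand: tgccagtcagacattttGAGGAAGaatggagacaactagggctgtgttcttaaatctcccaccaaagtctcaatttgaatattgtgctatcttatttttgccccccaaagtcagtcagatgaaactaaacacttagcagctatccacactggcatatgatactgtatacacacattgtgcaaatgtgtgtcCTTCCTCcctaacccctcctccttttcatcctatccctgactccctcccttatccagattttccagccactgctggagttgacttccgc
Ctsc, chr7:88277835-88278114, plus strand: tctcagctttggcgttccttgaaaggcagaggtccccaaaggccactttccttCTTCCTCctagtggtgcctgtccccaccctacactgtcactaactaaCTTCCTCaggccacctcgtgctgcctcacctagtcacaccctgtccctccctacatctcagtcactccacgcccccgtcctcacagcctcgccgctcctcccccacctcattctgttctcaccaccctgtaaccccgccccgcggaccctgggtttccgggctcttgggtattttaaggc

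TCACGTGA was found in 2 of the 9 windows, those of Ctsd and the printed start of Ctsa, against 0.974% of 32851 promoter windows of the same table. In Ctsa the matches begin 13 bases before the start and at base 5 after it, and in Ctsd the match begins 99 bases before the start, beside a CACGTG 245 bases before it. CACGTG alone was found in 3 windows, those of Ctsd, Ctsl and the same start of Ctsa, against 7.15% of all. The other Ctsa window, at the upstream end of the gene, holds none of the 3 motifs. GAGGAAG was found in the windows of Ctsc, Ctsk and Ctss, against 13.6% of all. In Ctsk the matches begin 233 and 59 bases before the start, in Ctsc 197 and 150 bases before it, and in Ctss 1 base before it. A match describes these letters only, is not a measured binding site, and was not tested against the levels.

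The libraries of the groups differ before any gene is compared. Totals ran from 3593110 to 21298142 reads. A set of 13 satellite-like genes, predicted genes that each take over 0.5% of isotype control reads, held 31.7% ± 2.23 (SD, n = 3) of reads in combination, 0.214% ± 0.0749 in anti-B7-H3, 72.7% ± 2.89 in anti-PD1 libraries and 93.0% ± 1.79 in isotype control libraries. An estimate of background from 1545 olfactory, vomeronasal and taste receptor genes came to 0.696%, 0.0776%, 6.37% and 17.6% of the remaining reads in the same groups. Levels are therefore given as CPM, reads in every 1000000 after TMM scaling, which sets a common centre over most genes. The TMM factors ran from 0.118 in isotype control replicate 2 to 3.41 in anti-B7-H3 replicate 1. That anti-B7-H3 library, with 3937727 reads, was scaled as if it had 13354210, so CPM and folds between groups depend strongly on this scaling. No groups overlapped on either measure, so these library features and the treatment cannot be told apart. Of the markers for the labelled tissue, the pigment genes Tyrp1 and Dct were at 0 reads in anti-B7-H3 libraries, and the summed melanocyte markers were 45.4, 26.8, 84.5 and 101 CPM in combination, anti-B7-H3, anti-PD1 and isotype control. Of the 7 listed melanocyte markers 4 passed the filter on low counts, and Tyrp1 and Dct did not. Of those 4, 3 were called lower in anti-B7-H3 than in isotype control and 0 higher, where 33.3% of all genes were called lower.

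The 10 cathepsins together made up 1306 ± 3.70 CPM in combination, 2282 ± 13.0 CPM in anti-B7-H3, 589.9 ± 6.15 CPM in anti-PD1 and 403.4 ± 16.4 CPM in isotype control libraries (SD, n = 3 each). Their reads summed over the 3 libraries were 43263, 86737, 14155 and 3412, so isotype control values are the least precise. In bulk tumours, fewer cells of a type and less RNA per cell cannot be told apart.

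**Figure D1:**
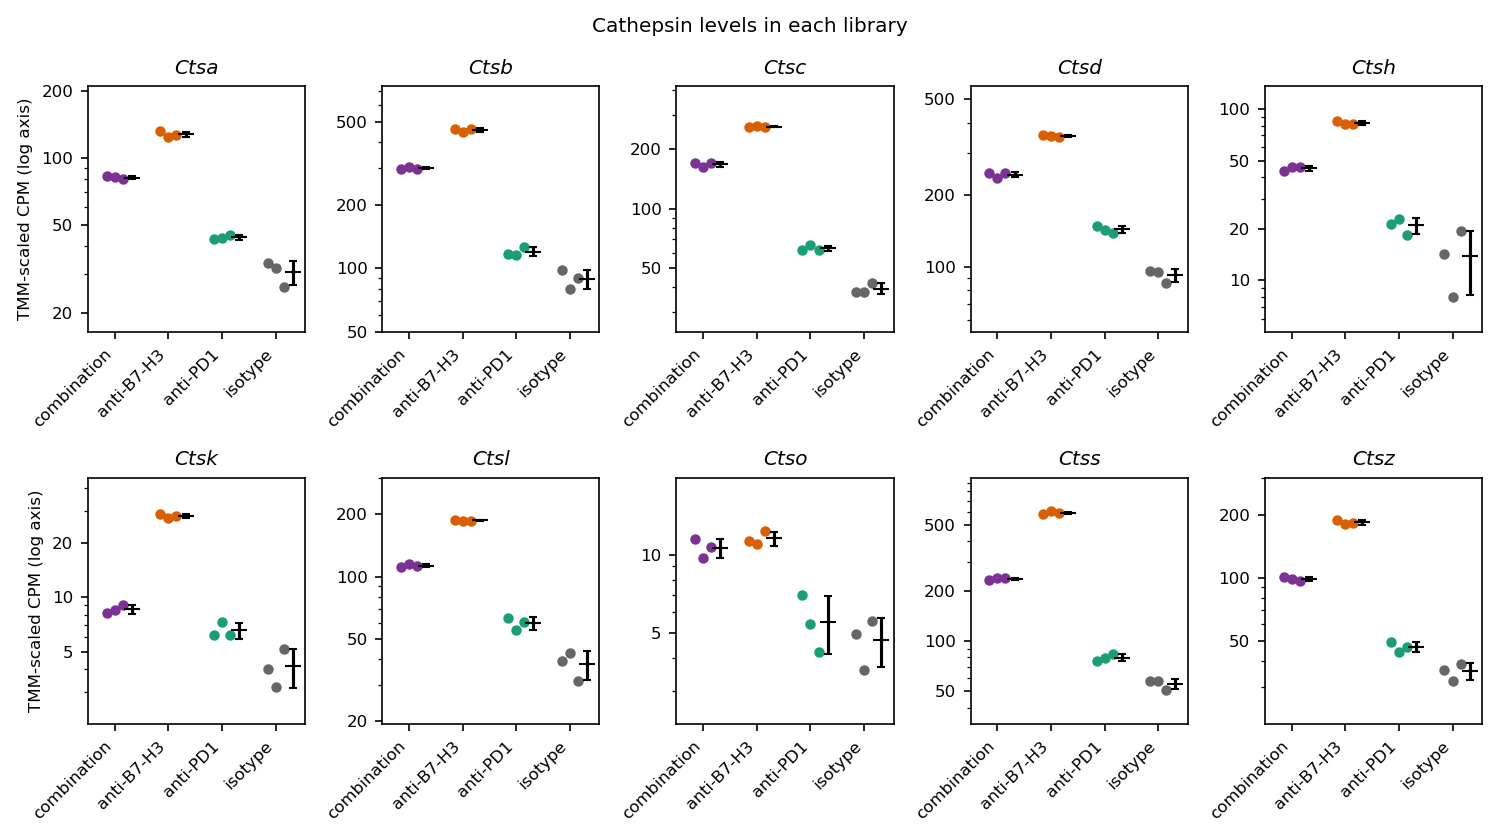
Level of each cathepsin (TMM-scaled CPM, log axis, own scale in each panel) in the 3 libraries of each antibody group, with the mean and SD beside the points. Anti-B7-H3 libraries are highest for 9 genes, and for Ctso they overlap the combination libraries.

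Ctss, the endopeptidase that antigen-presenting cells use to trim the invariant chain, had the widest range of levels. It stood at 233.4, 239.0 and 239.2 CPM in combination, 585.8, 603.0 and 586.8 CPM in anti-B7-H3, 76.3, 79.5 and 83.6 CPM in anti-PD1 and 57.8, 58.0 and 51.3 CPM in isotype control libraries. No groups overlapped. Against isotype control, Ctss was 10.6-fold higher in anti-B7-H3 (log2 3.41 ± 0.06 SE, adjusted p = 1.87e-55) and 4.25-fold higher in combination (log2 2.09 ± 0.06, adjusted p = 2.04e-40). With an estimate of background reads subtracted and the scaling computed anew, these log2 differences were 2.76 in anti-B7-H3 and 1.46 in combination. In the combination Ctss was 2.49-fold lower than in anti-B7-H3 (log2 -1.32 ± 0.04, adjusted p = 3.43e-38).

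Ctsb, an endopeptidase that also trims carboxyl ends, is among the most widely expressed cathepsins. It had 297.9, 304.2 and 298.6 CPM in combination, 461.0, 446.9 and 462.7 CPM in anti-B7-H3, 117.3, 116.4 and 126.9 CPM in anti-PD1 and 98.0, 79.6 and 89.9 CPM in isotype control libraries. The groups again did not overlap, and anti-PD1 lay closest to isotype control. Ctsl, an endopeptidase of most cell types, had 111.9, 115.5 and 112.1 CPM in combination, 188.5, 186.2 and 186.3 CPM in anti-B7-H3, 63.0, 55.2 and 60.6 CPM in anti-PD1 and 38.95, 42.8 and 31.2 CPM in isotype control, also without overlap. The log2 difference of anti-B7-H3 from isotype control was 2.35 ± 0.06 SE for Ctsb and 2.31 ± 0.07 SE for Ctsl, and 1.67 and 1.66 with background subtracted.

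Ctsk, the collagen-degrading cathepsin of osteoclasts that fibroblasts can also make, was among the least abundant of these genes. Its levels were 8.15, 8.49 and 9.10 CPM in combination, 28.7, 27.2 and 28.3 CPM in anti-B7-H3, 6.16, 7.28 and 6.19 CPM in anti-PD1 and 4.02, 3.20 and 5.20 CPM in isotype control. Anti-B7-H3 stood clear of the other groups, which lay near each other without overlap. The combination was 3.26-fold lower than anti-B7-H3 (log2 -1.70 ± 0.10 SE, adjusted p = 5.84e-24). In isotype control the gene had only 35 reads, of which 22.7 are expected from background, so its folds against that group rest on few reads. With background subtracted, 12.3 reads remained there and Ctsk was higher by 3.46 in anti-B7-H3 on the log2 scale, against 2.75 ± 0.18 SE in the counts as deposited.

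Ctsc, the dipeptidyl peptidase that activates granule serine proteases of neutrophils and cytotoxic cells, had 170.1, 162.8 and 171.1 CPM in combination, 261.0, 261.5 and 259.3 CPM in anti-B7-H3, 61.6, 65.2 and 62.2 CPM in anti-PD1 and 38.0, 38.0 and 42.3 CPM in isotype control. Every group stood apart from the others. Ctsh, an aminopeptidase, had 43.2, 46.0 and 45.9 CPM in combination, 84.99, 82.0 and 81.6 CPM in anti-B7-H3, 21.4, 22.9 and 18.4 CPM in anti-PD1 and 14.2, 8.001 and 19.3 CPM in isotype control. Its anti-PD1 and isotype control libraries overlapped, and isotype control varied most. Ctsz, a carboxypeptidase, averaged 99.2 ± 2.20 CPM in combination, 184.6 ± 4.43 CPM in anti-B7-H3, 46.8 ± 2.66 CPM in anti-PD1 and 35.6 ± 3.35 CPM in isotype control (SD, n = 3 each). The log2 difference of anti-B7-H3 from isotype control was 2.72 ± 0.07 SE for Ctsc, 2.57 ± 0.12 SE for Ctsh and 2.37 ± 0.07 SE for Ctsz. With background subtracted the values were 2.10 for Ctsc, 2.10 for Ctsh and 1.76 for Ctsz.

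Ctso did not follow the other genes in every comparison. It had 11.5, 9.68 and 10.7 CPM in combination, 11.3, 10.99 and 12.3 CPM in anti-B7-H3, 6.99, 5.40 and 4.22 CPM in anti-PD1 and 4.95, 3.60 and 5.57 CPM in isotype control. Combination overlapped anti-B7-H3, and anti-PD1 overlapped isotype control, so its values formed a higher and a lower pair of groups. The combination differed from anti-B7-H3 by a log2 value of -0.12 ± 0.13 SE (adjusted p = 0.477), and anti-PD1 from isotype control by 0.23 ± 0.26 SE (adjusted p = 0.514). Of its 40 isotype control reads, 21.5 are expected from background.

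Ctsd, the main aspartic protease of lysosomes, had 245.9, 235.3 and 245.9 CPM in combination, 354.8, 350.6 and 348.3 CPM in anti-B7-H3, 148.8, 143.3 and 138.6 CPM in anti-PD1 and 96.5, 95.2 and 85.9 CPM in isotype control. The groups did not overlap, but they lay closer together than those of Ctss. Ctsa, which holds the sialidase Neu1 and the galactosidase Glb1 in a stable complex, averaged 81.7 ± 1.64 CPM in combination, 127.7 ± 3.73 CPM in anti-B7-H3, 43.9 ± 1.09 CPM in anti-PD1 and 30.7 ± 3.84 CPM in isotype control (SD, n = 3 each). The log2 difference of anti-B7-H3 from isotype control was 1.92 ± 0.06 SE for Ctsd and 2.05 ± 0.08 SE for Ctsa, smaller values than those of the cysteine cathepsins other than Ctso. With background subtracted they were 1.25 and 1.51.

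In anti-B7-H3 against isotype control, all 10 cathepsins were called higher at an adjusted p under 0.05, where 30.8% of the 13478 genes tested were called higher and 33.3% lower. The range was from 1.28 for Ctso to 3.41 for Ctss on the log2 scale, with a median of 2.36 beside -0.04 over all genes tested. With background subtracted, all 10 were still called and the median was 1.73. That setting scaled the reduced counts anew, so its values hold changed scaling as well as removed reads. In isotype control, expected background was 4.99% of Ctss reads and 64.8% of Ctsk reads, against 0.0013% and 0.0266% in anti-B7-H3. Removed reads by themselves would thus raise these log2 values. The order of the genes changed: Ctsk was then first at 3.46 and Ctss second at 2.76, while Ctsd was last at 1.25 and Ctso stood at 1.71.

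In the combination against isotype control, all 10 cathepsins were called higher, where 27.8% of all genes were called higher and 29.5% lower. Ctsc and Ctss led at 2.09 each on the log2 scale, and Ctsk was smallest at 1.05 ± 0.23 SE (adjusted p = 7.49e-05). The median was 1.53 beside -0.01 over all genes, and 1.17 with background subtracted. The subtraction turned this order over as well, with Ctsk first at 1.76 (adjusted p = 0.000125), Ctso at 1.60, Ctsc at 1.49 and Ctss at 1.46, and Ctsd last at 0.74.

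In anti-PD1 against isotype control, 9 cathepsins were called higher, 8 of them without overlap between the groups, where 17.5% of all genes were called higher and 20.9% lower. The share of all genes without overlap was not counted. The differences were small, with a median log2 value of 0.55 beside -0.04 over all genes. Ctsc was highest at 0.68 ± 0.08 SE (adjusted p = 1.05e-10), followed by Ctsl at 0.66, Ctsk at 0.65 and Ctsd at 0.63. With background subtracted the median was 0.20 and 3 cathepsins were called higher, where 14.95% of the 12968 genes then tested were called higher and 10.4% lower. They were Ctsc at 0.26 (adjusted p = 0.0176), Ctsd at 0.18 (adjusted p = 0.0215) and Ctsk at 1.42 (adjusted p = 0.00508), while Ctsb and Ctsz turned to -0.04 and -0.02. Ctsk lost its call under a DESeq2 Wald test (0.64, adjusted p = 0.0576) and when a library was left out, be it isotype control replicate 1 (0.61, adjusted p = 0.116), isotype control replicate 2 (0.51, adjusted p = 0.173) or anti-PD1 replicate 2 (0.56, adjusted p = 0.101). Ctsh lost its call when isotype control replicate 2 was left out (0.33, adjusted p = 0.0917). These 3 comparisons share the isotype control libraries.

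**Figure D2:**
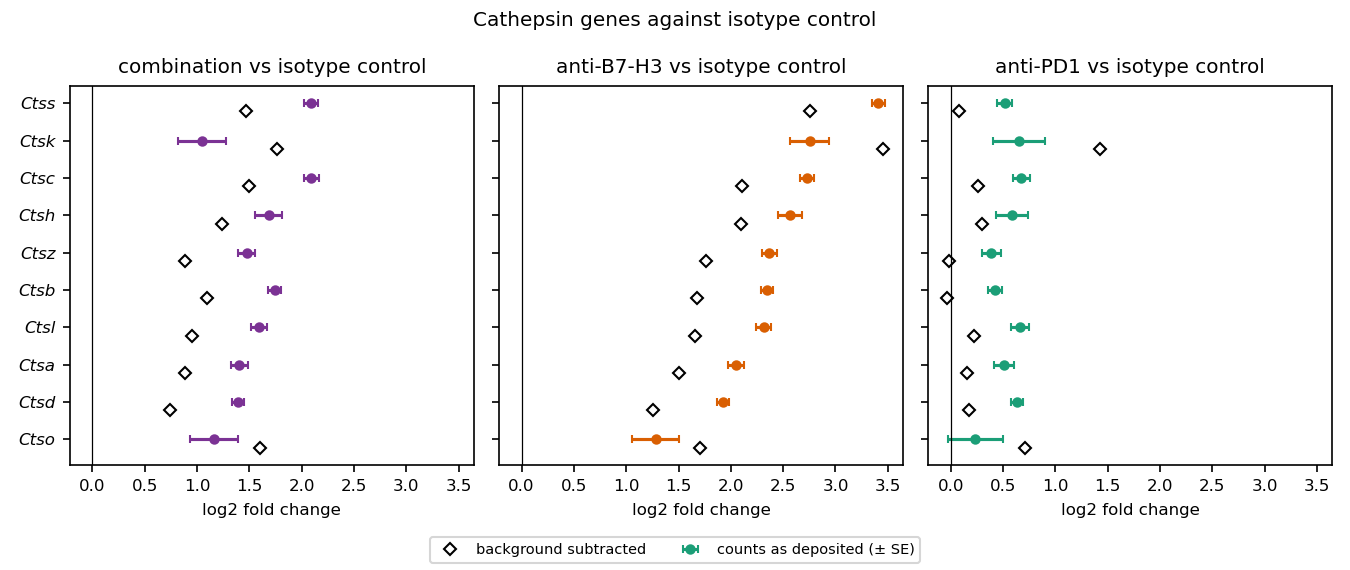
Log2 fold change of each cathepsin against isotype control in the combination, anti-B7-H3 and anti-PD1, from counts as deposited (filled, with SE) and with the estimated background subtracted (open). Subtraction, with the scaling computed anew, moved 8 genes to lower values in each panel and Ctsk and Ctso to higher ones. In anti-PD1 it brought Ctsb and Ctsz to about 0.

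The combination and anti-B7-H3, which had the lowest background, differed in the level of most cathepsins. In the combination 9 cathepsins were called lower than in anti-B7-H3, where 19.8% of all genes were called higher and 19.1% lower. After Ctsk and Ctss, with log2 values of -1.70 and -1.32, the values ran from -0.90 for Ctsz and -0.88 for Ctsh to -0.53 for Ctsd. The median was -0.69 beside 0.01 over all genes, and -0.66 with background subtracted.

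Against anti-PD1, all 10 cathepsins were called higher in the combination, where 23.1% of all genes were called higher and 23.4% lower. Ctss led at a log2 value of 1.57 ± 0.05 SE, followed by Ctsc at 1.42 and Ctsb at 1.32. Ctsk was last at 0.39 ± 0.14 SE (adjusted p = 0.0206), and it lost its call with background subtracted (0.34, adjusted p = 0.102). The same held without anti-PD1 replicate 1 (0.34, adjusted p = 0.0954), anti-PD1 replicate 3 (0.35, adjusted p = 0.0827) or combination replicate 3 (0.38, adjusted p = 0.0552).

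In anti-B7-H3 against anti-PD1, all 10 cathepsins were called higher, where 30.4% of all genes were called higher and 31.6% lower. Ctss was 7.42-fold higher (log2 2.89 ± 0.05 SE), and Ctsk was 4.28-fold higher (2.10 ± 0.12). Ctso had the smallest difference at 1.05 ± 0.15 SE on the log2 scale.

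The interaction asks whether anti-PD1 changed a gene by the same log2 amount with anti-B7-H3 present as without it. It was called below 0 for 9 cathepsins, where 19.1% of all genes were called above 0 and 17.3% below it. Ctsk had the lowest value at -2.36 ± 0.26 SE (adjusted p = 5.68e-12) and Ctss the next at -1.84 ± 0.08 (adjusted p = 4.34e-30). Ctso had -0.35 ± 0.29 SE (adjusted p = 0.362) and was not called. The median was -1.30 beside 0.04 over all genes, and -0.86 with background subtracted, where Ctsk had -3.12. In counts as deposited, the sum of the single effects lies above anti-B7-H3 alone for each of these 9 genes, while the measured combination lay below it.

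By mean level, all 10 cathepsins stood in the order anti-B7-H3, combination, anti-PD1 and isotype control, and 8 of them without overlap between any neighbours of that order. The share of all genes with that order or without overlap was not counted, so these counts cannot be called a trait particular to cathepsins. With background subtracted and the scaling computed anew, anti-PD1 was no longer above isotype control for Ctsb and Ctsz. The same order, from low to high, holds for the share of satellite-like reads and for the estimated background, and its part in the levels was not tested. The background itself reached a large part of the reads for few cathepsins. In isotype control it was 64.8% of Ctsk reads, 53.8% of Ctso reads, 15.6% of Ctsh reads and 11.3% of Ctsa reads, and from 3.08% for Ctsb to 7.01% for Ctsz in the others. In combination and anti-B7-H3 libraries it was under 1% for every cathepsin.

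**Figure D3:**
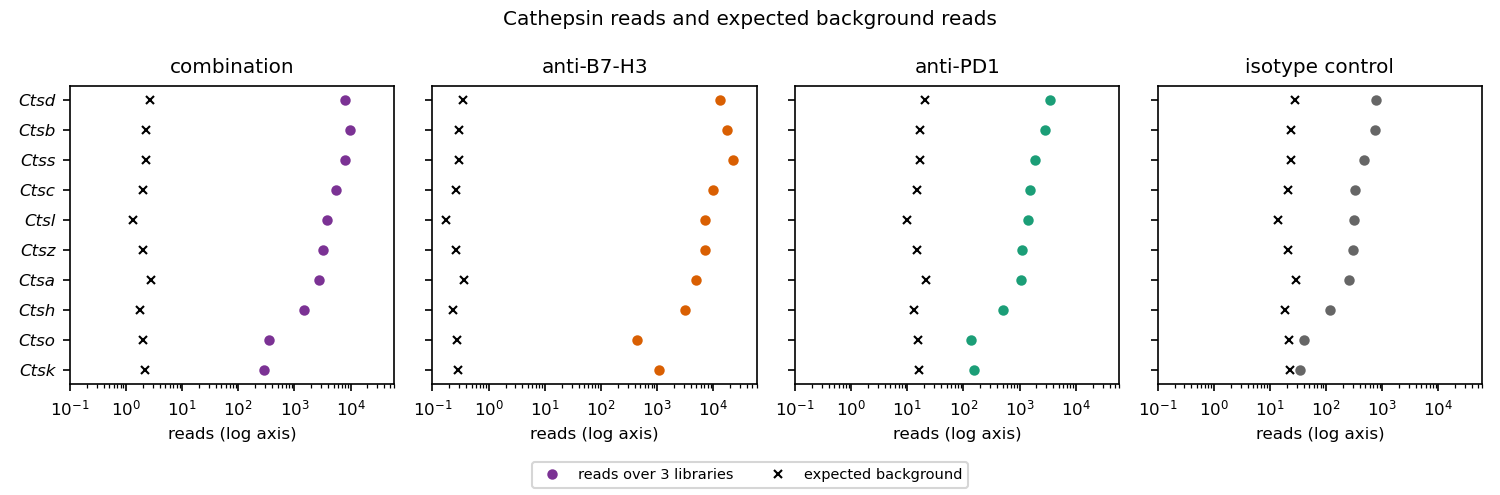
Reads of each cathepsin summed over the 3 libraries of a group (filled) and reads expected from background (crosses), on a log axis. In anti-B7-H3 the reads lie far above the crosses for all 10 genes, and in isotype control Ctsk and Ctso have 35 and 40 reads beside 22.7 and 21.5 expected.

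Measures taken within a library do not depend on the scaling between libraries. Cathepsin reads were 0.457% of all reads outside the satellite-like genes in combination, 0.776% in anti-B7-H3, 0.181% in anti-PD1 libraries and 0.0863% in isotype control libraries. On that scale anti-B7-H3 was 8.99-fold and the combination 5.30-fold above isotype control, and anti-PD1 was 2.10-fold above it. The make-up of the cathepsin reads also differed between groups. Ctss reads per Ctsb read were 0.790 ± 0.00970 in combination, 1.30 ± 0.0461 in anti-B7-H3, 0.664 ± 0.0167 in anti-PD1 libraries and 0.630 ± 0.0862 in isotype control (SD, n = 3 each). With background subtracted they were 0.791, 1.29, 0.662 and 0.608, so this ratio hardly moved with it.

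Levels of different genes are compared here per length, as RPKM (reads per kilobase of effective length, scaled like CPM). In the combination Ctsb led at 347 RPKM, followed by Ctss at 273 RPKM, Ctsl at 246 RPKM, and Ctsd and Ctsc, which overlapped, at 225 and 220 RPKM. In anti-B7-H3 libraries Ctss led at 668 RPKM, followed by Ctsb at 517 RPKM, Ctsl at 397 RPKM, Ctsc at 335 RPKM and Ctsd at 320 RPKM, with no overlap between neighbours anywhere in the order. Ctss was thus second in the combination and first in anti-B7-H3. In anti-PD1 the levels of Ctsb, Ctsl and Ctsd, at 144, 137 and 137 RPKM, overlapped, and Ctss came after them at 95.4 RPKM. In isotype control Ctsb led at 109 RPKM, Ctsd and Ctsl overlapped at 90.0 and 89.4 RPKM, and Ctss came after them at 68.1 RPKM. Ctsk and Ctso were last in every group, at 10.3 and 13.5 RPKM in combination, 32.9 and 14.4 RPKM in anti-B7-H3, 8.15 and 7.36 RPKM in anti-PD1 libraries and 5.28 and 6.42 RPKM in isotype control.

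As a share of the summed per-length level within a library, Ctss held 17.0% ± 0.213 in combination, 24.2% ± 0.494 in anti-B7-H3, 12.7% ± 0.638 in anti-PD1 libraries and 13.0% ± 0.826 in isotype control (SD, n = 3 each). The share of Ctsd was lowest where that of Ctss was highest, with 14.0% ± 0.359 in combination, 11.6% ± 0.0515 in anti-B7-H3, 18.2% ± 0.607 in anti-PD1 libraries and 17.2% ± 0.913 in isotype control. Ctsk held 0.640% in combination, lower than the 1.19% in anti-B7-H3, 1.08% in anti-PD1 libraries and 1.01% in isotype control. With background subtracted the Ctsk shares were 0.635%, 1.19%, 0.981% and 0.379% in the same groups, so isotype control then lay below the combination. The shares of all 10 genes overlapped between anti-PD1 and isotype control, and none overlapped between combination and anti-B7-H3. An exact two-sided permutation test of 3 against 3 libraries cannot go below 0.1, and 36 of 60 share comparisons reached that value (smallest Benjamini-Hochberg adjusted p = 0.167), so no share difference passed 0.05.

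**Figure D4:**
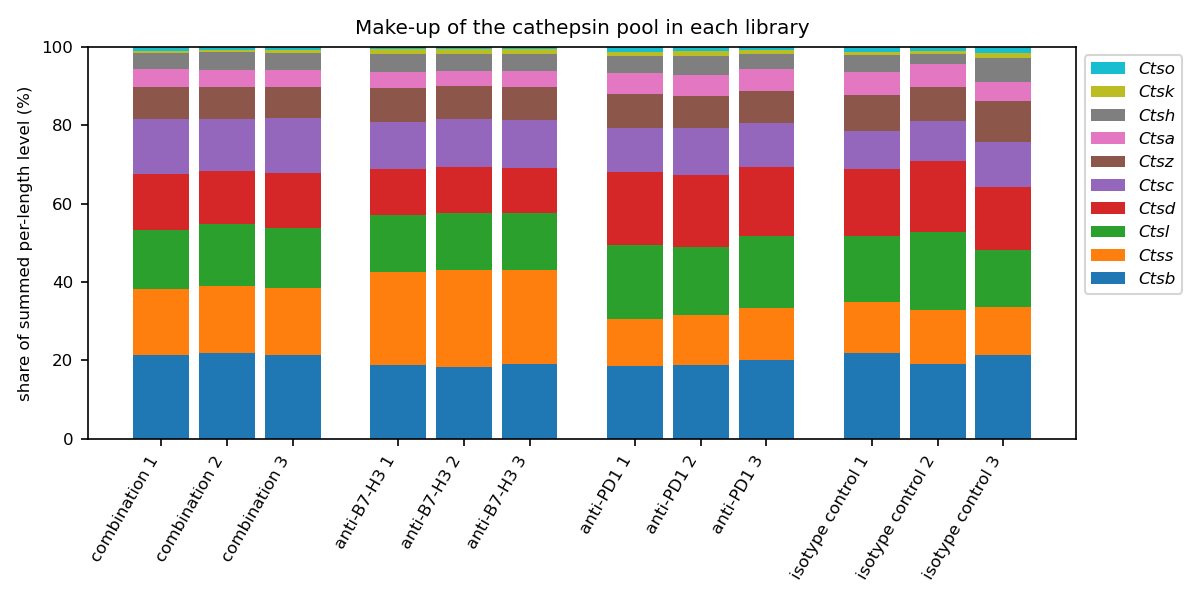
Share of each cathepsin in the summed per-length level of the 10 genes (percent), as 1 stacked bar for each of the 3 libraries of an antibody group. Ctss takes its widest band in anti-B7-H3, at a mean of 24.2%, and Ctsd its narrowest there, at a mean of 11.6%.

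The transcripts that held the reads were mostly the same in every group. Ctsb, Ctsk, Ctso and Ctsz have 1 listed transcript each, and all Ctsd reads were on Ctsd-202. Ctss-202 held 86.9% of Ctss reads in combination, 87.4% in anti-B7-H3, 89.3% in anti-PD1 libraries and 83.7% in isotype control. Ctsc-201 held 80.9%, 84.4%, 79.3% and 78.7% in the same groups, and Ctsa-201 held 88.7%, 91.2%, 83.0% and 95.3%. Ctsl was spread most, with 67.3%, 74.2%, 55.9% and 63.2% on Ctsl-205. The sources used here do not say how reads were divided among transcripts, so shares of overlapping transcripts are uncertain.

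Markers of several cell types moved with the cathepsins, and their part in the levels was not tested. The 12 macrophage markers (among them Adgre1, Csf1r and C1qa) summed to 1261 CPM in combination, 2489 CPM in anti-B7-H3, 466.6 CPM in anti-PD1 and 330.4 CPM in isotype control, and none was at 0 in any group. All 12 were called higher in combination and in anti-B7-H3, and 6 in anti-PD1, each against isotype control, and 11 were called lower in combination than in anti-B7-H3. Over all genes, 27.8%, 30.8% and 17.5% were called higher in combination, anti-B7-H3 and anti-PD1, and 19.1% lower in combination than in anti-B7-H3. The 4 monocyte markers summed to 98.6 CPM in combination, 682.8 CPM in anti-B7-H3, 37.5 CPM in anti-PD1 and 39.8 CPM in isotype control. The 8 fibroblast markers summed to 4280, 6627, 4006 and 1898 CPM, and the 6 osteoclast markers to 127, 169, 35.9 and 39.6 CPM with Calcr at 0 in anti-B7-H3. Keratinocyte markers summed to 0.892, 0.0499, 14.4 and 31.5 CPM with 4 of them at 0 in anti-B7-H3, and skeletal muscle markers summed to 84.3, 0.190, 18.4 and 26.6 CPM with Myh4 and Myl1 at 0 there. In the same groups, neutrophil markers summed to 12.4, 33.2, 11.4 and 21.5 CPM, dendritic cell markers to 13.0, 21.3, 11.6 and 22.1 CPM, and T cell markers to 10.2, 20.9, 4.32 and 14.6 CPM. Markers of NK and cytotoxic cells summed to 9.58, 18.7, 8.30 and 17.5 CPM, of B cells to 1.47, 5.18, 3.10 and 10.4 CPM, of endothelium to 46.7, 61.8, 29.5 and 39.1 CPM, and of adipocytes to 1.23, 4.92, 3.51 and 9.40 CPM. No background was subtracted from these sums or from the melanocyte sum given earlier. Estimated background was 0.727, 0.0955, 5.48 and 7.64 reads per kilobase in a library of the same groups. Low sums in anti-PD1 and isotype control may hold mostly background, so their order between groups is uncertain. Members of a list could also differ. In anti-B7-H3 against isotype control, all 8 fibroblast and all 4 monocyte markers were called higher, but only 2 of 4 osteoclast markers tested. Of 3 neutrophil markers tested 1 was called higher and 1 lower, and of 5 dendritic cell markers 2 and 2. Over all genes, 30.8% were called higher and 33.3% lower there.

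The cathepsin total and the macrophage total lay near each other in every group, a nearness that depends on which markers were summed. There were 1.04 ± 0.00202 cathepsin reads per macrophage marker read in combination, 0.917 ± 0.00779 in anti-B7-H3, 1.26 ± 0.0270 in anti-PD1 libraries and 1.22 ± 0.0849 in isotype control (SD, n = 3 each). The groups' ratios thus spanned far less than the levels, with anti-B7-H3 lowest. With background subtracted these macrophage ratios were 1.04, 0.917, 1.29 and 1.38 in the same groups, so anti-PD1 then lay below isotype control. Cathepsin reads per fibroblast marker read, in counts as deposited, were 0.305, 0.344, 0.147 and 0.213 in that order of groups. They too spanned less than the levels, here with anti-B7-H3 highest, so a narrower span was not particular to macrophage markers. Of single genes, Ctsd had 19.2, 14.1, 30.8 and 28.1 reads per 100 macrophage marker reads in the same groups, and Ctss 18.8, 23.8, 17.1 and 16.9. With background subtracted Ctsd had 19.3, 14.1, 31.6 and 32.6 and Ctss 18.8, 23.8, 17.5 and 19.4, so isotype control then lay above anti-PD1 for Ctsd, and above anti-PD1 and the combination for Ctss. Ctsk per 100 fibroblast marker reads was 0.200 in combination, 0.423 in anti-B7-H3, 0.164 in anti-PD1 libraries and 0.216 in isotype control, and 0.200, 0.424, 0.147 and 0.0790 with background subtracted. Of 72 such ratio comparisons, 58 reached 0.1 in an exact two-sided permutation test, the smallest p that 3 against 3 allows (smallest adjusted p = 0.124).

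Partners of cathepsins differed as a group in the same direction. Of 5 tested, Cd74, Psap, Lgmn, Neu1 and Glb1, all were called higher in combination and in anti-B7-H3 against isotype control, 3 in anti-PD1, and all were called lower in combination than in anti-B7-H3. The shares of all genes in those comparisons were 27.8%, 30.8% and 17.5% higher, and 19.1% lower. Cd74, the invariant chain that Ctss trims, was higher by a log2 value of 2.21 ± 0.06 SE in combination and 3.45 ± 0.06 in anti-B7-H3, against isotype control. Cd74 reads per Ctss read were 2.88, 2.72, 4.48 and 2.66 in combination, anti-B7-H3, anti-PD1 and isotype control, so anti-PD1 stood apart. Psap, the precursor of sphingolipid activators that Ctsd helps to cut, was higher by 1.56 ± 0.05 SE in combination and 2.15 ± 0.05 in anti-B7-H3. Lgmn, the asparaginyl protease that processes several cathepsins, was higher by 1.54 ± 0.07 SE and 2.12 ± 0.06. The Ctsa partners Neu1 and Glb1 differed less, by 1.02 and 1.03 in anti-B7-H3, where Ctsa itself differed by 2.05.

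Of the cathepsin inhibitors, 6 of 13 listed were tested, and 4 were called higher in combination and in anti-B7-H3 against isotype control. Over all genes, 27.8% and 30.8% were called higher there. Cst3, the secreted cystatin C, was higher by a log2 value of 1.56 ± 0.09 SE in combination, 2.31 ± 0.08 in anti-B7-H3 and 0.90 ± 0.09 in anti-PD1. Serpinb6a, an intracellular serpin that inhibits serine proteases and is listed with the cathepsin inhibitors, was higher by 1.71 ± 0.09 SE in combination and 1.75 ± 0.09 in anti-B7-H3, and the combination differed from anti-B7-H3 by -0.03 ± 0.05 (adjusted p = 0.686). Cst7, a cystatin of immune cells, was called lower in anti-PD1 than in isotype control (-1.88 ± 0.63 SE, adjusted p = 0.0130) on 9 reads against 12, where 7.16 and 9.97 are expected from background. Of 13 other cathepsins, 3 were tested, and 1 of them, Ctsw of cytotoxic lymphocytes, was called higher in anti-B7-H3 (1.08 ± 0.36 SE, adjusted p = 0.00749). That count is near the share of 30.8% over all genes. All 3 were called lower in combination than in anti-B7-H3, where 19.1% of all genes were called lower. Ctsw was at -1.55 ± 0.26 SE, Ctse, an aspartic cathepsin, at -1.94 ± 0.47 on 11 reads against 50, and Ctsf at -0.46 ± 0.17.

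Other lysosomal genes moved less than the cathepsins by median, a description and not a test. Over all genes tested, 30.8% were called higher and 33.3% lower in anti-B7-H3 against isotype control. The shares were 17.5% and 20.9% in anti-PD1 against isotype control, and 19.8% and 19.1% in combination against anti-B7-H3. In anti-B7-H3 against isotype control, 22 of 25 hydrolases were called higher with a median log2 value of 1.06, among them the progranulin gene Grn at 1.92 ± 0.07 SE and the mannosidase gene Man2b1 at 2.75 ± 0.07. All 16 proton pump subunits were called higher with a median of 1.20, as were 8 of 12 membrane proteins with a median of 1.27, including Lamp1 at 1.78 ± 0.06 SE. Of 9 sorting genes 6 were called higher and 1 lower, and the mannose 6-phosphate receptor gene Igf2r differed by 0.50 ± 0.05 SE. Of the 4 lysosomal transcription factors 2 were called higher, with Tfe3 at 0.72 ± 0.18 SE and Mitf, which was not called, at 0.18 ± 0.17. In the combination against anti-B7-H3, 16 hydrolases, 10 proton pump subunits, 6 membrane proteins, 4 sorting genes and 3 of the 4 transcription factors were called lower. In the other direction, 2 membrane proteins and 1 sorting gene were called higher, with Igf2r, the sorting gene, at 0.47 ± 0.04 SE. In anti-PD1 against isotype control, 9 hydrolases were called higher and 2 lower, and 9 proton pump subunits were called higher and 1 lower. Of the membrane proteins 7 were called higher and 1 lower there, of the sorting genes 1 and 1, and no transcription factor was called.

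**Figure D5:**
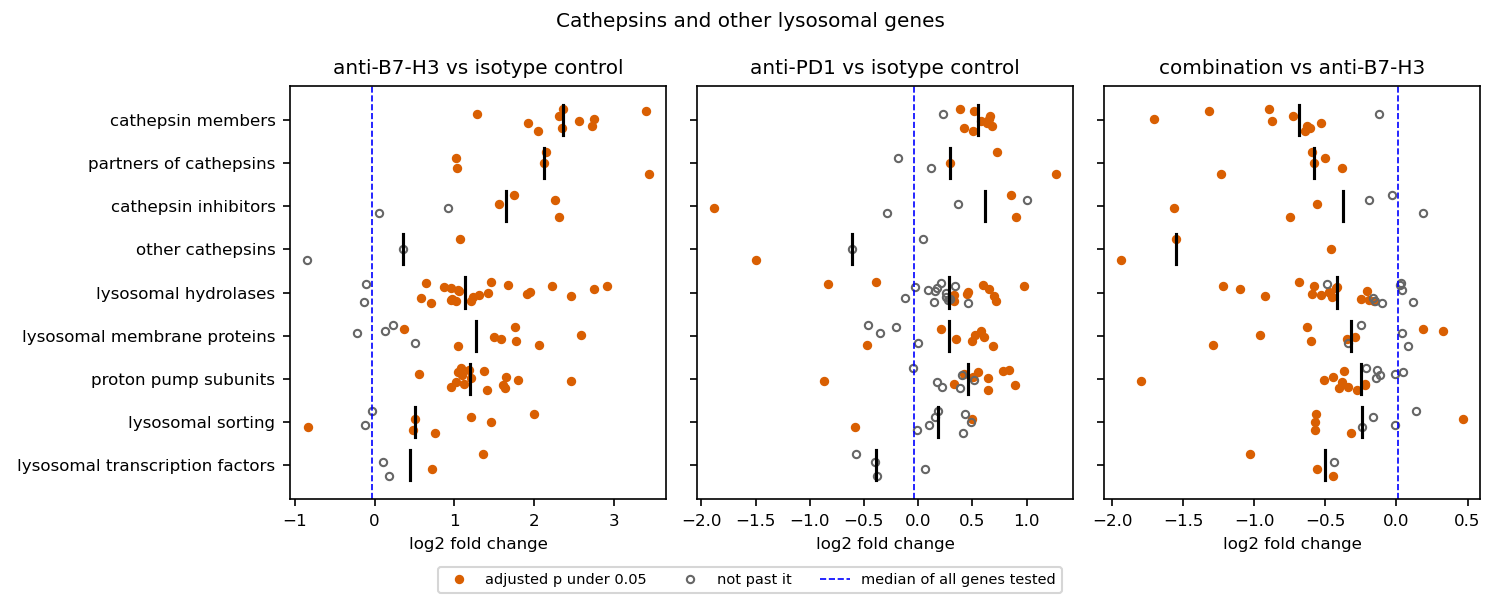
Log2 fold change of each tested gene in the cathepsins and 8 lists of related genes, for anti-B7-H3 against isotype control, anti-PD1 against isotype control and combination against anti-B7-H3, with filled points for an adjusted p under 0.05, a bar at the median of the genes drawn and a dashed line at the median of all genes tested. Gla, with 0 reads in anti-B7-H3, is not drawn, and the cathepsins have the highest median in the first panel at 2.36.

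The genes with the most similar pattern to each cathepsin were ranked by Pearson's r of log2 CPM over the 12 libraries, among 5418 genes outside the lists. The libraries fall into 4 separate groups, so r mainly reflects the group means, and it is given as a description without a p. Ctss was closest to Ighm, Apoe and Slc7a2 (each r = 0.997), and Ctsz to Ighm (r = 0.998), Samhd1 and Apoe. Ctsb was closest to Tgm2 (r = 0.999), Mmp12 and Pcolce, and Ctsc to Serinc3 (r = 0.998), Tgm2 and Fstl1. Ctsk was closest to Txnip (r = 0.992), Rarres2 and Myo1g, and Ctso to Ccn1 (r = 0.982), Nsmce4a and Srp54a. Ctsd was closest to Prkcd, Rps7 and Sec14l1, Ctsl to Pla2g7, Bcl2a1b and Il4ra, Ctsa to Gm49673, Pla2g7 and Mgl2, and Ctsh to Adam15, Rps25 and Rpl36.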

How the data were processed

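RNA of 12 mouse tumour libraries was measured in 4 groups of 3, named by the treatment label. Samples entered with 500 ng or more of total RNA and an integrity number from 7.0 up, lost ribosomal RNA and became Illumina TruSeq libraries, per the labels' protocols. The build GRCm38 and a run of FastQC 0.11.8 are known per the submitters' processing notes; the read assignment program and its strand setting are not given in the sources used here, so reads of a gene and an antisense partner cannot be told apart. Columns per transcript are, per the file headers, estimated counts, TPM and lengths (full and effective). Unscaled estimated counts as deposited were tested; the deposited TPM values were not used. Of the lengths, 87.3% are multiples of 3, so they are coding lengths.

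Estimated counts were summed per gene with GENCODE M21 (57473 of 58083 transcripts matched, 610 not) and rounded. They were tested with edgeR 4.0.16 in R 4.3.3 (TMM scaling, filter by expression, robust quasi-likelihood F test, all 12 libraries in 1 fit, Benjamini-Hochberg over 13478 genes, threshold 0.05). Every adjusted p of a gene is from this fit unless another setting is named. On simulated data for combination against anti-PD1 over 12854 genes, 80% of 2-fold and 42% of 1.5-fold changes were called. Shares and ratios were compared with exact two-sided permutation tests over libraries. Expected background of a gene is the reads per kilobase of coding length of 1545 chemoreceptor genes times its coding length. The fit with background subtracted filtered and scaled the reduced counts anew. Depth per library is 3593110 to 21298142 reads, and its precision covers counting error only.

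The cathepsins, 8 lists of related genes and 14 marker lists were chosen with earlier results of these data known. All cathepsins and any tested gene of the lists of other cathepsins, inhibitors and partners may be named, and of longer lists the 2 genes with most reads. Ifi30 was not analysed here. Replicate numbers did not pair libraries of different groups: same-number deviations had correlations of -0.22 to 0.40 over 18 pairs, and 5 passed 0.1. Alternatives were DESeq2 1.42.0 size factors and Wald test, no filter, a replicate block, a fit of only the groups compared, an effective-length offset, background subtracted, satellite-like genes left out, both together (chosen after seeing the data), transcripts matched with the same version, and each library left out.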

Additional observations from a re-analysis of the deposited data

Results flagged for a closer look

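For 9 cathepsins the effect of adding anti-PD1 differed between tumours with and without anti-B7-H3, by the interaction term of the edgeR fit. The interaction was -2.36 for Ctsk, -1.84 for Ctss, -1.46 for Ctsh, -1.39 for Ctsl, -1.31 for Ctsc, -1.29 for Ctsz, -1.17 for Ctsd, -1.16 for Ctsa and -1.03 for Ctsb on the log2 scale. Each of the 9 was lower in combination than in anti-B7-H3 and higher in anti-PD1 than in isotype control in counts as deposited, and each interaction stayed called in all alternatives tried. With background subtracted, the interactions of the 10 genes ran from -3.12 to -0.54. Satellite-like reads, at 31.7% in combination, 0.214% in anti-B7-H3, 72.7% in anti-PD1 libraries and 93.0% in isotype control, differ over the same libraries, and their part in these values was not tested.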

How the results depend on the processing

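Of 1460 values of single cathepsins over 21 alternatives, 1438 kept direction and side of the threshold, 18 fell short of it and 4 changed sign, all in the comparisons of anti-PD1 with isotype control or of combination with anti-PD1. In anti-PD1 against isotype control the count of cathepsins called higher was 9, and 3 both with background subtracted and with satellite-like genes left out as well. There Ctsb turned to -0.040 (adjusted p = 0.662) and -0.032 (adjusted p = 0.728), and Ctsz to -0.020 (adjusted p = 0.918) and -0.011 (adjusted p = 0.954); Ctsa (0.16), Ctsh (0.30), Ctsl (0.22) and Ctss (0.08) were not called. That setting also computed the scaling anew, and the part of each step was not tested. Expected background was 3.08% of Ctsb reads and 7.01% of Ctsz reads in isotype control, and 0.582% and 1.35% in anti-PD1. The removal of reads thus took the larger part from isotype control, which by itself moves these values up, not down. Leaving out 1 library in turn gave 7 to 9 cathepsins called in anti-PD1 against isotype control and 9 to 10 in combination against anti-PD1, and left the counts at 10, 10, 10 and 9 in anti-B7-H3 against isotype control, combination against isotype control, anti-B7-H3 against anti-PD1 and combination against anti-B7-H3, and at 9 for the interaction, with 0 in the other direction. The replicate block changed no call of a cathepsin: with it Ctss in anti-B7-H3 against isotype control was 3.41 and Ctsk in anti-PD1 against isotype control was 0.65 (adjusted p = 0.0350). Without a pairing in the labels, 4 of 12 libraries correlated best with their own number. Over all genes, no filter on low counts raised the calls to 16711 from anti-B7-H3, 10021 from anti-PD1 and 15865 from combination against isotype control, 11406 from combination and 14594 from anti-B7-H3 against anti-PD1 and 7352 for the interaction, where the filtered fit has 8641, 5164, 7727, 6271, 8356 and 4900; anti-PD1 against isotype control had 8552 without satellite-like genes and 3284 with background subtracted. Without a filter the calls were 35.3%, 36.1%, 38.8% and 35.5% higher for anti-B7-H3 and combination against isotype control and combination and anti-B7-H3 against anti-PD1, where the filtered fit has 48.0%, 48.5%, 49.8% and 49.0%. With background subtracted they were 59.0% and 59.2% higher for anti-PD1 and combination against isotype control, where the counts as deposited give 45.6% and 48.5%. Against isotype control, no filter moved the median of all genes by 0.31, 0.16 and 0.30 in anti-B7-H3, anti-PD1 and combination, and leaving out satellite-like genes by 0.23, 0.18 and 0.27. The medians of the cathepsins without satellite-like genes were then 2.59, 0.73 and 1.80. Isotype control reads limit the precision most, with 35 for Ctsk and 40 for Ctso.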
